A study of Mus musculus with 59 samples.

Results

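Prefrontal cortex of wild-type mice given lithium was compared with prefrontal cortex of wild-type mice given fluoxetine. The members are the 10 libraries labelled WT lithium and the 10 labelled WT fluoxetine, 20 of the 59 libraries of the series. The series covers WT mice and mice heterozygous (HT) for Naa15, the gene of the ribosome-anchoring subunit of the NatA N-terminal acetyltransferase, under vehicle, fluoxetine or lithium. Messenger RNA was read from a stranded, poly(A)-selected library of each sample.

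Every mouse was of the C57BL/6J strain and was analysed at postnatal day 25. The drug reached the pups through their mothers' milk over 3 weeks, from postnatal day 3 to day 24, and the dose is not in the labels. Each drug was represented by 5 female and 5 male WT libraries. The 10 WT vehicle libraries (5 of each sex) and the 5 lithium and 5 fluoxetine libraries of HT males served as side comparisons. Litters are not in the labels, so p-values measure only the spread between these libraries, part of which may be technical or shared within a litter.

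Lithium is a mood stabiliser that inhibits inositol monophosphatase and glycogen synthase kinase 3 (GSK3), the kinase that marks beta-catenin for destruction. Fluoxetine blocks the serotonin transporter and so prolongs the presence of serotonin at its receptors. Both drugs are used against mood disorders and reach infants in milk. Around weaning the mouse cortex is in a time of synapse formation, maturation of parvalbumin interneurons, vessel growth and myelination.

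Values are normalised counts, that is, reads per gene divided by the authors' size factor of the library, and the 20 libraries held 24.99 to 32.87 M reads. Differences are lithium minus fluoxetine on the scale of log2(normalised count + 1), with sex as a covariate and the SE of the fit. A gene is called higher or lower where its limma p, adjusted by Benjamini-Hochberg over all 17891 genes tested, was under 0.05. In bulk tissue, fewer cells of a type and less RNA per cell cannot be told apart.

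Lithium and fluoxetine cortex differed in a large share of the transcriptome, by small amounts. Of 17891 genes, 9283 were called (51.9%), 4633 higher (25.9%) and 4650 lower (26.0%) under lithium. The median size of a called difference was 0.27 on the log2 scale, 1036 called genes differed by more than 0.5 and 108 by more than 1. The lithium and fluoxetine ranges did not overlap for 2868 genes (16.0%), with lithium above in 1257 and below in 1611. In females 7034 genes were called (39.3%, 18.8% higher and 20.5% lower). In males 7368 were called (41.2%, 19.8% higher and 21.4% lower). The interaction of drug with sex called 0 genes in limma, with 1841 at an unadjusted p under 0.05 and a smallest adjusted p of 0.41.

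The differences ran along the base composition and length of the genes. A library's GC slope is the regression slope, over genes, of the library's deviation from each gene's mean log2 value on gene GC content. It was -0.157 ± 0.049 (SD, n = 10) per 10 points of GC content under lithium and 0.133 ± 0.0346 (SD, n = 10) under fluoxetine, and the ranges, -0.24 to -0.0569 and 0.0817 to 0.172, did not overlap. The difference of -0.29 gave a two-sided permutation p of 2e-05, the smallest that 100000 resamples can give (adjusted over 3 library properties, 3e-05). It was -0.315 in females and -0.266 in males (exact permutation p = 0.00794 in each). The length slope, in log2 per doubling of gene length, was -0.0697 ± 0.0357 under lithium and 0.0424 ± 0.0218 under fluoxetine (SD, n = 10 each; difference -0.112, permutation p = 2e-05, adjusted 3e-05).

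The fifth of the genes lowest in GC content had a median difference of 0.22, with 57% called higher and 1.06% lower. The fifth highest in GC content had a median of -0.26, with 4.87% called higher and 59.1% lower. Vehicle libraries lay mostly on the side of fluoxetine, with GC slopes of -0.0627 to 0.16 and a median of 0.103. The lowest, WT vehicle female replicate 1, lay inside the lithium range. Drug and this library property cannot be told apart in the WT comparison, since no WT lithium library shared a slope with a WT fluoxetine library. Every comparison was therefore also made after a smooth trend on GC content and length was removed from each library. Then 5022 of 17880 genes were called (28.1%), 2423 higher (13.6%) and 2599 lower (14.5%). With the slopes as covariates in place of the removal 67 genes were called, 34 higher and 33 lower, and 2983 had an unadjusted p under 0.05. In what follows "trend-removed" marks a value from the first of these. It is given for named genes and lists where it ended or made a call, changed a direction or moved the difference or a count by more than 1.5 times. For lists it was made only for lithium against fluoxetine in WT. List counts between the drugs stand beside 25.9% higher and 26.0% lower of all genes. Trend-removed list counts stand beside 13.6% and 14.5%.

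**Figure D1:**
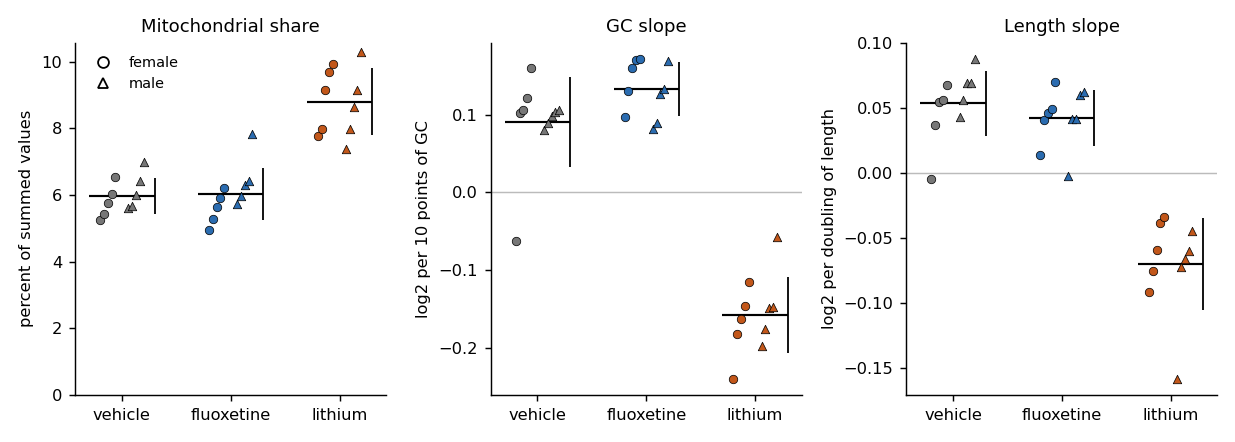
Mitochondrial share (percent of the summed normalised counts), GC slope (log2 per 10 points of GC content) and length slope (log2 per doubling of gene length) of each WT library by treatment. Circles are females, triangles males, horizontal lines means over 10 libraries and vertical lines ±1 SD. Lithium GC slopes, -0.24 to -0.0569, lie below all fluoxetine slopes, 0.0817 to 0.172.

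The vehicle libraries place the contrast. Lithium against vehicle called 9206 genes (51.5%, 25.9% higher and 25.5% lower). Fluoxetine against vehicle called 110 (0.615%), 69 higher (0.386%) and 41 lower (0.229%). Both comparisons use the same vehicle libraries, so their values are given side by side only. Of the genes called between the drugs, 3890 were higher and 3964 lower under lithium than under vehicle, in the same direction as between the drugs, with fluoxetine not called against vehicle. A further 724 higher and 637 lower genes were called against neither. The fluoxetine count depended on single libraries: higher calls were 106 and lower calls 65 without WT vehicle female replicate 2. Higher calls were 43, 42, 41 and 43 without WT fluoxetine female replicate 3, female replicate 5, male replicate 4 and male replicate 5, and 45 and 40 without WT vehicle female replicate 4 and male replicate 4.

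Transcripts of the mitochondrial genome were higher under lithium. They made up 8.79% ± 1 (SD, n = 10) of the summed values under lithium and 6.02% ± 0.78 (SD, n = 10) under fluoxetine, a difference of 2.77 percentage points (permutation p = 6e-05, adjusted 6e-05). The difference was 3.31 points in females (exact permutation p = 0.00794) and 2.23 in males (exact permutation p = 0.0159). The lithium range of 7.37% to 10.3% overlapped the top of the fluoxetine range of 4.96% to 7.83%. Vehicle libraries lay at 5.26% to 6.98%.

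Of 15 mitochondrially encoded genes 12 were called higher and 0 lower, beside 25.9% and 26.0% of all genes, with a median difference of 0.55 against 0.02 over all genes. These genes are poor in GC (median 36% against 49.4%). Their trend-removed median was 0.02, with 2 higher and 1 lower. The 2 that stayed higher were mt-Atp6 and mt-Co2. The 1 called lower was mt-Atp8, named after its values were seen, which lies between them, overlaps mt-Atp6 and stood at 0.65 before and -0.36 after the removal (adjusted p = 0.000795 and 0.012). Reads in the overlap could be split between both genes in counting.

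The gene mt-Atp6 encodes subunit a of ATP synthase, through which protons flow back across the inner membrane. Its normalised count was 42531 to 61975 under lithium (median 55531), 12523 to 19318 under fluoxetine (median 15535) and 13755 to 22979 under vehicle (median 17041). Lithium lay wholly above the other groups. The difference was 1.79 ± 0.075 (adjusted p = 3.66e-13, higher in 10 of 10 libraries than the fluoxetine mean of the same sex) and the trend-removed difference 1.18. In HT males it was 1.65 ± 0.14 (adjusted p = 1.52e-06).

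The gene mt-Co2 encodes a core subunit of cytochrome c oxidase. It ranged from 105487 to 151828 under lithium (median 115840) and from 32320 to 69550 under fluoxetine (median 57635), again without overlap. It differed by 1.22 ± 0.13 (adjusted p = 7.75e-08, 10 of 10 libraries), trend-removed 0.65. The complex I subunit gene mt-Nd3 was higher by 1.09 ± 0.18 (adjusted p = 2.88e-05, 9 of 10 libraries), with overlapping ranges of 1847 to 8017 and 1109 to 2184. The 16S ribosomal RNA gene mt-Rnr2 and the complex I gene mt-Nd1 were higher in 10 of 10 libraries, by 0.59 and 0.57 (adjusted p = 7.34e-07 and 3.5e-06). The calls of these 3 genes ended trend-removed, at 0.26, 0.15 and 0.07 (adjusted p = 0.309, 0.0573 and 0.531). Gm28438, annotated as an unprocessed pseudogene on chromosome 1, was higher by 0.93 ± 0.078 (adjusted p = 3.01e-09, 10 of 10 libraries) and also ended its call, at 0.10 (0.29). Its mitochondrial origin was not checked and its reads may be shared with another copy.

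Nuclear genes of energy metabolism and translation stood higher too. Of 80 nuclear genes of oxidative phosphorylation 60 were called higher and 8 lower, with a median of 0.31. Trend-removed the counts were 35 and 10 and the median 0.09. Atp5mpl, a small subunit of ATP synthase, was 1527 to 1791 under lithium and 951 to 1099 under fluoxetine (0.64 ± 0.033, adjusted p = 9.21e-12, 10 of 10 libraries). Ndufa4, associated with cytochrome c oxidase, was 5142 to 6096 and 3501 to 4074. Its difference of 0.54 ± 0.036 (adjusted p = 1.42e-10) was 0.14 trend-removed. Neither gene's ranges overlapped. Lars2, the mitochondrial leucyl-tRNA synthetase, was 5676 to 17568 against 3153 to 8610, with overlap, and differed by 0.92 ± 0.22 (adjusted p = 0.00152, 8 of 10 libraries).

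Of 78 cytosolic ribosomal protein genes 55 were higher and 7 lower (median 0.28), and 39 and 13 trend-removed (median 0.12). Rps19, a small-subunit protein, was 1775 to 2122 under lithium against 1213 to 1528 under fluoxetine, without overlap (0.50 ± 0.041, adjusted p = 2.81e-09). Rpl34, Rps25 and Rpl22 were higher by 0.47, 0.41 and 0.32 (adjusted p up to 3.36e-09, 10 of 10 libraries each). Rpl31-ps8 and Gm15387, both annotated as processed pseudogenes on chromosome 15, were higher by 0.87 and 0.92 (adjusted p = 1.58e-06 and 1.7e-08), trend-removed 0.44 and 0.52. Ribosomal protein genes have many near-identical copies, so which copy gave the reads is uncertain. Of 77 mitochondrial ribosomal protein genes 51 were higher and 6 lower (median 0.18), trend-removed 28 and 5 (0.06). Mrpl11, of the large mitochondrial subunit, was 928 to 1122 against 732 to 814 (0.36 ± 0.032, adjusted p = 8.38e-09). Of 38 proteasome subunit genes 21 were higher and 5 lower (median 0.13), but trend-removed 7 and 9 (-0.04).

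**Figure D2:**
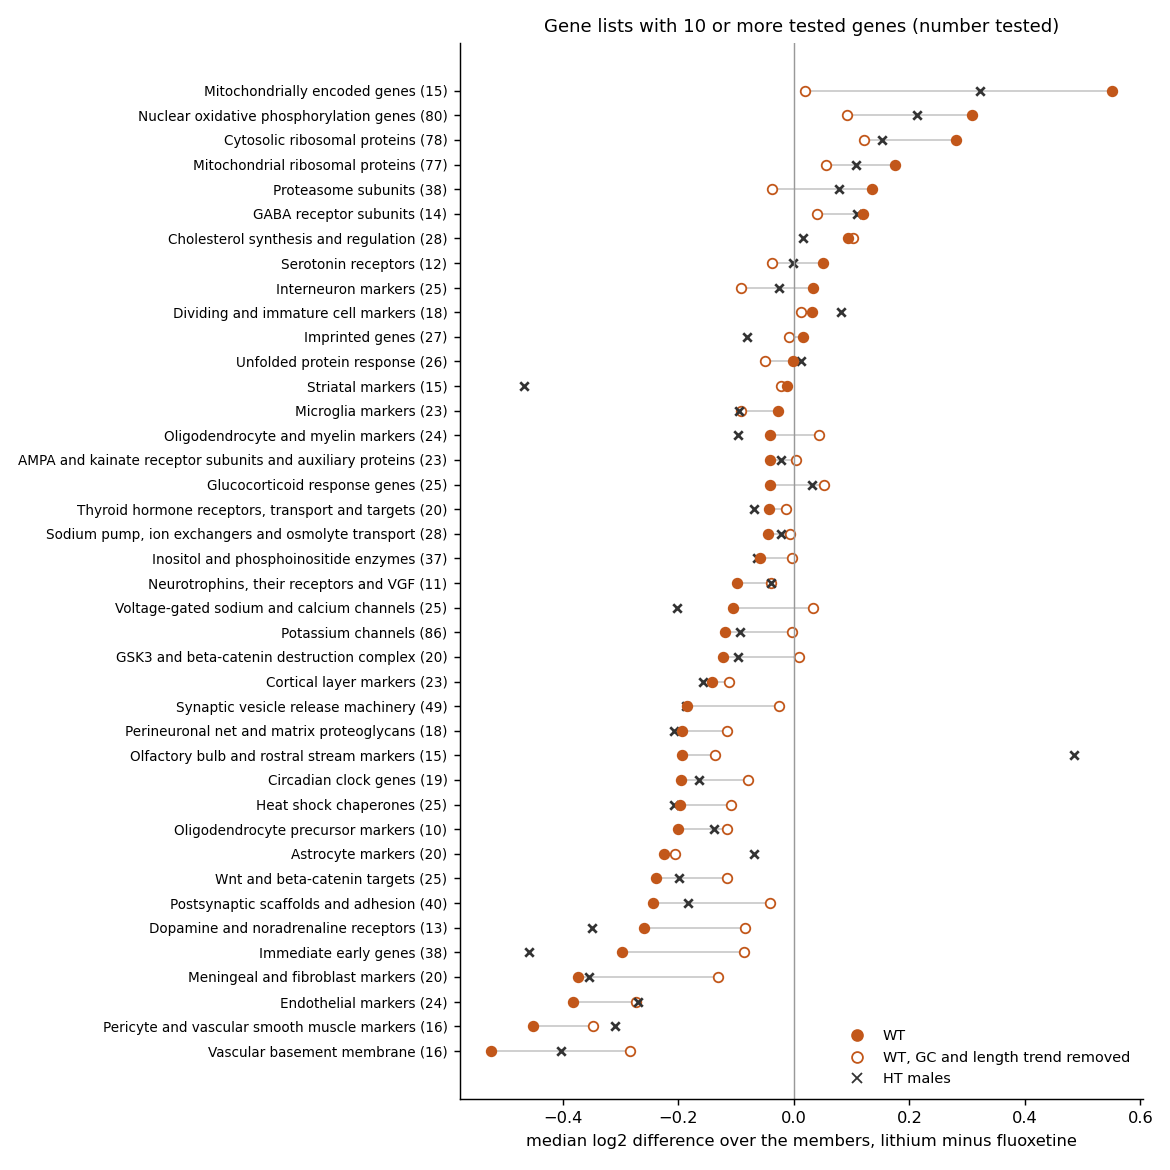
Median log2 difference, lithium minus fluoxetine, over the tested members of each gene list with 10 or more tested genes. Filled circles are WT libraries, open circles the same after the GC and length trend was removed, and crosses HT males. The mitochondrially encoded list moved from 0.55 to 0.02 and the basement membrane list from -0.52 to -0.28.

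Genes of the vessel wall were mostly lower under lithium. Endothelial cells line the vessel, pericytes and smooth muscle cells wrap it, and both rest on a basement membrane of laminin, collagen IV and perlecan. Of 16 basement membrane genes 0 were higher and 15 lower (median -0.52), of 16 pericyte and smooth muscle markers 0 and 13 (median -0.45), and of 24 endothelial markers 4 and 17 (median -0.38). These counts stand beside 25.9% higher and 26.0% lower over all genes. Trend-removed they were 0 and 11 (-0.28), 0 and 12 (-0.35) and 1 and 18 (-0.27). All called members of these 3 lists had the same sign in females and in males, as in every other list. Calls from a fit of both sexes make such agreement likely beforehand, so it is no separate support. The medians were -0.40 and -0.63 in females and males for the basement membrane, -0.32 and -0.62 for pericytes and smooth muscle, and -0.29 and -0.48 for endothelium.

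Hspg2, which encodes perlecan, was 312 to 612 under lithium (median 471), 794 to 1029 under fluoxetine (median 889) and 618 to 1068 under vehicle (median 871). The lithium range lay below both others. The difference was -0.92 ± 0.089 (adjusted p = 2.14e-08, lower in 10 of 10 libraries), trend-removed -0.43. Lamb2 and Lamc1, the beta 2 and gamma 1 chains of laminin, were lower by 0.74 and 0.55 (adjusted p = 3.07e-11 and 5.78e-09), trend-removed -0.35 and -0.31. Lamb2 was 677 to 842 under lithium and 1135 to 1334 under fluoxetine. Col4a1, the alpha 1 chain of collagen IV, was 2196 to 2854 against 3322 to 4095 and lower by 0.54 (adjusted p = 6.79e-09), trend-removed -0.17.

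Notch3, a receptor of mural cells, was 373 to 572 under lithium (median 461), 678 to 874 under fluoxetine (median 760) and 596 to 850 under vehicle (median 802). It was lower by 0.76 ± 0.066 (adjusted p = 4.7e-09, 10 of 10 libraries), trend-removed -0.32. Acta2, smooth muscle actin, was 268 to 450 against 388 to 762, with some overlap, and lower by 0.80 ± 0.11 (adjusted p = 2.94e-06). Myl9, a smooth muscle myosin light chain, was 236 to 325 against 384 to 550, without overlap, and lower by 0.68 ± 0.065 (adjusted p = 1.78e-08). The last 2 differences were nearly the same trend-removed, at -0.87 and -0.63.

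Among endothelial genes, Cdh5, the adhesion molecule of endothelial junctions, was 365 to 578 under lithium (median 434) and 566 to 780 under fluoxetine (median 673). Its ranges touched, and it was lower by 0.61 ± 0.078 (adjusted p = 1e-06, 10 of 10 libraries). Vwf, von Willebrand factor, Eng, a co-receptor of TGF-beta signalling, and Bsg, basigin, were lower by 0.70, 0.57 and 0.29 (adjusted p up to 8.73e-08), trend-removed -0.34, -0.31 and -0.16. None of these 3 had overlapping ranges.

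Another set of endothelial genes differed on the fluoxetine side. It held the 4 of 24 endothelial markers called for fluoxetine against vehicle (4 higher and 0 lower, beside 0.386% and 0.229% of all genes). They were named after their values were seen. They were picked by this call, so their higher level under fluoxetine is no separate support. Slc2a1, the glucose transporter of the blood-brain barrier, was 3079 to 5051 under lithium (median 3583), 3986 to 6928 under fluoxetine (median 4724) and 2502 to 4427 under vehicle (median 3551). It rose under fluoxetine against vehicle by 0.52 (adjusted p = 0.00397) and stood at 0.08 under lithium (adjusted p = 0.505), with -0.44 ± 0.099 between the drugs (adjusted p = 0.000735), trend-removed -0.29. Sox18 and Sox17, transcription factors of endothelial cells, rose under fluoxetine by 0.71 and 0.47 (adjusted p = 0.00669 and 0.00236) and stood at -0.13 and 0.10 under lithium (0.471 and 0.318). Mfsd2a, the lipid transporter of the barrier, rose under fluoxetine by 0.37 (adjusted p = 0.0325) and stood at -0.03 under lithium (0.779). Between the drugs Sox18, Sox17 and Mfsd2a were lower under lithium by 0.84, 0.37 and 0.40 (adjusted p = 5.34e-05, 4.92e-05 and 0.000435). Trend-removed, lithium against vehicle stood at 0.22 for Slc2a1, 0.04 for Sox18, 0.19 for Sox17 and 0.03 for Mfsd2a (adjusted p = 0.0642, 0.853, 0.0684 and 0.812).

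**Figure D3:**
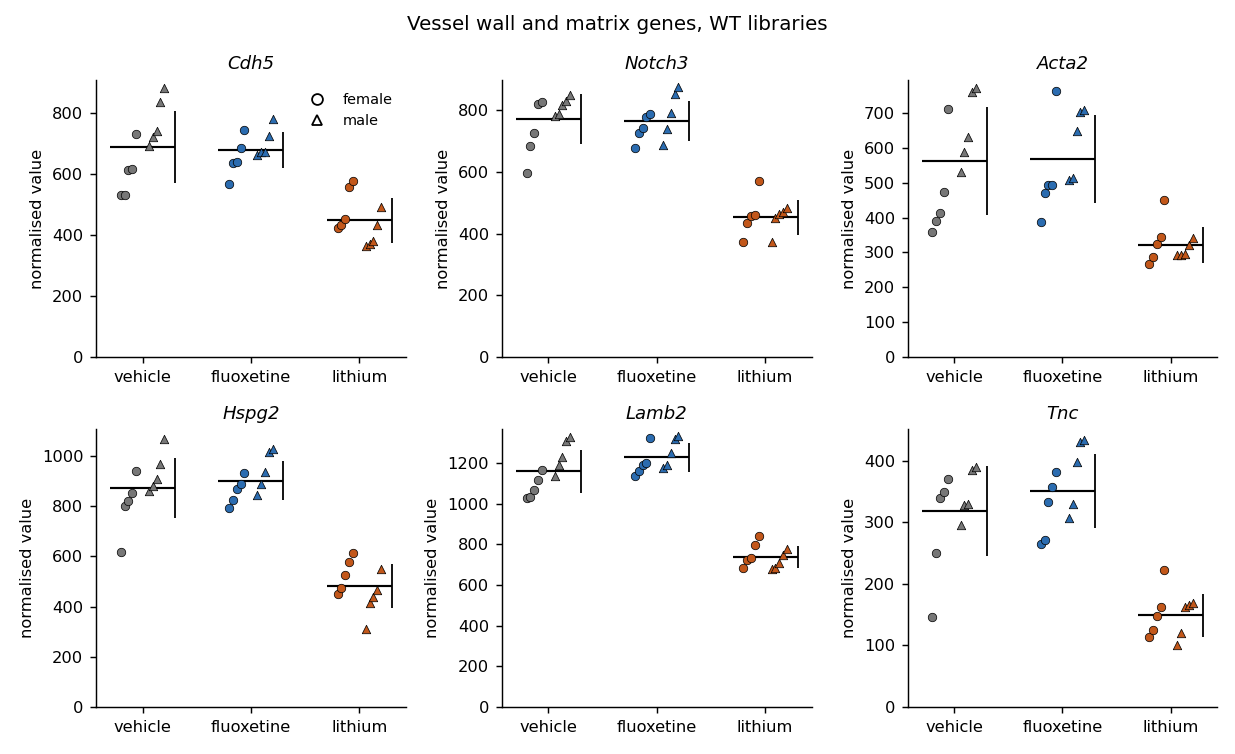
Normalised counts of 6 vessel wall and matrix genes in the 30 WT libraries by treatment. Circles are females, triangles males, horizontal lines means over 10 libraries and vertical lines ±1 SD. For Hspg2 lithium libraries lie at 312 to 612 and fluoxetine libraries at 794 to 1029, with vehicle at 618 to 1068.

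Fibroblast and astrocyte markers were also more often lower than higher. Of 20 meningeal and fibroblast markers 1 was higher and 10 lower (median -0.37), trend-removed 0 and 5 (-0.13). Split by sex, the median was -0.05 in females and -0.68 in males. Col1a1, a fibrillar collagen, was lower by 1.04 ± 0.23 (adjusted p = 0.00067), trend-removed -0.65. One fluoxetine male library reached 3465, where the fluoxetine median was 738 and the lithium range 334 to 600. Col3a1, another fibrillar collagen, was 182 to 461 against 405 to 602 and lower by 0.77 ± 0.13 (adjusted p = 3.85e-05). The summed level of the meningeal list ran from 10037 to 18076 under lithium and from 13212 to 24046 under fluoxetine. The part of dissected meninges in the vessel wall result was not tested.

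Of 20 astrocyte markers 2 were higher and 12 lower (median -0.22), and 1 and 12 trend-removed (-0.21). Apoe, the lipid carrier made by astrocytes, was 22894 to 29653 under lithium (median 25999) and 35526 to 48032 under fluoxetine (median 39993), without overlap. It was lower by 0.63 ± 0.055 (adjusted p = 5.29e-09, 10 of 10 libraries). Clu, clusterin, and Aldh1l1, a folate enzyme used as an astrocyte marker, were lower by 0.38 and 0.46 (adjusted p = 1.83e-08 and 4.16e-07), the latter -0.25 trend-removed. Of 23 microglia markers 7 were higher and 11 lower (median -0.03), trend-removed 2 and 6 (-0.09). Their median was 0.07 in females and -0.18 in males. Laptm5, a lysosomal membrane protein of immune cells, was 747 to 896 against 1055 to 1236 and lower by 0.49 ± 0.038 (adjusted p = 1.07e-09), trend-removed -0.32. Of 10 oligodendrocyte precursor markers 1 was higher and 5 lower (median -0.20), trend-removed 0 and 4 (-0.12). Of 24 oligodendrocyte and myelin markers 2 were higher and 4 lower (median -0.04), trend-removed 0 and 1 (0.04), and the median was -0.35 in females and 0.28 in males. The summed myelin list varied widely inside both groups, from 63344 to 218652 under lithium and from 64851 to 207418 under fluoxetine.

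Perineuronal nets are shells of proteoglycan around parvalbumin interneurons that form in these weeks. Of 18 net and matrix proteoglycan genes 0 were higher and 7 lower (median -0.19), trend-removed 1 and 5 (-0.12). Tnc, which encodes the matrix glycoprotein tenascin-C, was 101 to 222 under lithium (median 155), 264 to 434 under fluoxetine (median 345) and 146 to 390 under vehicle (median 335). Lithium lay wholly below fluoxetine. The difference was -1.25 ± 0.12 (adjusted p = 3.36e-08, 10 of 10 libraries) and in HT males -0.56 ± 0.21 (adjusted p = 0.0544). Ncan and Bcan, the proteoglycans neurocan and brevican, were both lower by 0.48 (adjusted p = 9.21e-12 and 1.59e-09), trend-removed -0.18 and -0.14.

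Immediate early genes are switched on within minutes of neuronal activity, and many carry binding sites for CREB, the factor activated by calcium and cyclic AMP. Of 38 such genes 5 were higher and 19 lower (median -0.30), trend-removed 5 and 12 (-0.09). Against vehicle the list had 5 higher and 26 lower under lithium (median -0.55), beside 25.9% and 25.5% of all genes, and 1 and 10 under fluoxetine (median -0.28), beside 0.386% and 0.229%. Genes of the list are rich in GC (median 54.8%), and its counts against vehicle were not made trend-removed. The median was -0.44 in females and -0.17 in males.

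The 250 bases upstream of 4 of these genes follow, chosen after their values were seen because the genes differ in how the drugs related to vehicle: Dusp1, Nr4a1 and Fos were lower under both drugs, Jun was called under lithium only. They are RefSeq promoters of build GRCm38.p6, written 5′ to 3′ on the gene's strand: Dusp1 at chr17:26508473-26508722 (minus), Nr4a1 at chr15:101266596-101266845 (plus), Fos at chr12:85473640-85473889 (plus) and Jun at chr4:95052223-95052472 (minus). Capitals mark TGACG or its reverse complement CGTCA, the 5-base core of the CREB site. The full site TGACGTCA holds both cores, overlapping in the central bases.
Dusp1: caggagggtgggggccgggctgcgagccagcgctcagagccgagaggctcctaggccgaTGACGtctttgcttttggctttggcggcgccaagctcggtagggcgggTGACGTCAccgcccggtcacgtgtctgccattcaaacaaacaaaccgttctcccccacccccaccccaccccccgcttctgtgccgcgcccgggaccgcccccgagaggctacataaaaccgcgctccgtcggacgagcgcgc
Nr4a1: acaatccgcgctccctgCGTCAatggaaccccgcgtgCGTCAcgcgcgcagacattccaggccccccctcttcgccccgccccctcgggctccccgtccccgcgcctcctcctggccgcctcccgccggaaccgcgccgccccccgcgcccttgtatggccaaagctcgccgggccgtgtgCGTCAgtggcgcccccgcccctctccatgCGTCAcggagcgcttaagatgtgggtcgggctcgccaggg
Fos: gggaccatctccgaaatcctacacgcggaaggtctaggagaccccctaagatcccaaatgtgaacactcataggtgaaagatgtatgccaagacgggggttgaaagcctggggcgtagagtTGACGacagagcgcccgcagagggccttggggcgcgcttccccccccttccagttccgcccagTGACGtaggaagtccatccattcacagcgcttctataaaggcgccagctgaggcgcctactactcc
Jun: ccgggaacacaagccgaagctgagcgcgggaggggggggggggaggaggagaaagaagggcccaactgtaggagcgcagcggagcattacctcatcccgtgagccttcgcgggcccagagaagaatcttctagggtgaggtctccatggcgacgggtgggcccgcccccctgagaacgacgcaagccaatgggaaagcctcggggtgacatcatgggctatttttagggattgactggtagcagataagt

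The Dusp1 window held 3 cores, including 1 full site, the Nr4a1 window 4, the Fos window 2 and the Jun window 0. Over all 32851 promoters of 27025 genes in the same RefSeq table, 17.8% of windows of this length held a core, 0.688% held at least 3 and 1.55% held the full site. Of the 38 immediate early genes 29 had an entry, with 43 windows, of which 24 (55.8%) held a core. Counted by gene, 20 of the 29 (69%) had a core in any window, beside 19.8% of all genes in the table. Whether core counts went with the differences from vehicle over the list was not tested, and members can be named on both sides. Egr2, Btg2 and Junb each had a core in a window and stood at -1.02, -0.73 and -0.70 under fluoxetine. Fosl2 and Dusp6 had 0 cores and stood at -0.60 and -0.36 under lithium and -0.45 and -0.35 under fluoxetine. Egr4 and Klf2 had 2 cores and 1, and stood at -0.69 and -0.66 under lithium and -0.03 and 0.0014 under fluoxetine. The genes named here were picked after their values were seen. All cores are matches of letters, not measured sites.

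Among the genes lower under lithium, 3 patterns against vehicle can be described. Arc, a synaptic protein gene induced by activity, was 1054 to 2740 under lithium (median 1587), 2196 to 6924 under fluoxetine (median 2693) and 4862 to 8633 under vehicle (median 6331). Lithium was below fluoxetine and fluoxetine mostly below vehicle, apart from 1 fluoxetine female at 6924. The difference between the drugs was -0.82 ± 0.17 (adjusted p = 0.000364, 10 of 10 libraries), trend-removed -0.54, and the differences from vehicle were -1.95 (lithium, adjusted p = 2.69e-11) and -1.13 (fluoxetine, 0.000158). In HT males it was -1.46 ± 0.32 (adjusted p = 0.00216). Sik1, a kinase induced through CREB, was 247 to 372, 357 to 545 and 504 to 940 under lithium, fluoxetine and vehicle. It was lower by 0.58 ± 0.076 between the drugs (adjusted p = 1.27e-06), trend-removed -0.34. Egr2, a zinc finger transcription factor named after its values were seen, was 61.5 to 173, 117 to 355 and 357 to 527, and lower by 0.73 ± 0.20 (adjusted p = 0.00357).

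Egr3, of the same family, was 2646 to 3445 under lithium (median 3157), 3862 to 5071 under fluoxetine (median 4650) and 3544 to 4884 under vehicle (median 4538). Only lithium stood apart: the difference was -0.56 ± 0.052 between the drugs (adjusted p = 1.46e-08, 10 of 10 libraries), -0.48 from vehicle for lithium (9.62e-08) and 0.08 for fluoxetine (0.704). Jun, a subunit of the AP-1 transcription factor whose window is printed above, was 837 to 1075, 1122 to 1466 and 1122 to 1615. It was lower by 0.45 ± 0.049 (adjusted p = 1.13e-07), trend-removed -0.26. Egr1, named after its values were seen, was 3795 to 5417, 5057 to 9111 and 6741 to 10206 and lower by 0.59 ± 0.10 (adjusted p = 3.69e-05), trend-removed -0.28. It belonged less clearly to this pattern. Trend-removed, it stood at -0.59 from vehicle for lithium (adjusted p = 4.35e-05) and at -0.31 for fluoxetine (0.201). Fluoxetine males reached down to 5057, where the lowest vehicle male was at 7589.

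The third pattern is of genes below vehicle under both drugs with no call between them, named after their values were seen. Fos, the partner of Jun in AP-1, was 291 to 654, 328 to 848 and 793 to 1977, with medians of 502, 700 and 1036, so lithium lay wholly below vehicle and fluoxetine overlapped it at the edge, with 3 of 10 libraries above the lowest vehicle library. Between the drugs it stood at -0.36 ± 0.16 (adjusted p = 0.0589). Its p fell below the threshold without WT fluoxetine male replicate 3 or 4 (0.0366, 0.0198) or WT lithium male replicate 1 or 3 (0.0138, 0.0332). The orphan receptor gene Nr4a1 had medians of 1530, 1688 and 3261 and stood at -0.20 ± 0.10 (adjusted p = 0.12), trend-removed -0.0011 (0.996), at -0.26 (0.0276) without WT lithium male replicate 1 and -0.11 (0.225) without WT fluoxetine female replicate 5. The phosphatase gene Dusp1 had medians of 576, 472 and 900 and stood at 0.22 ± 0.12 (adjusted p = 0.125), called trend-removed at 0.31 (0.0455) and without WT fluoxetine female replicate 5 (0.31, 0.00969). Genes of the list also went the other way. Rheb, an activator of mTOR, was 2791 to 3304 under lithium and 2287 to 2485 under fluoxetine, higher by 0.29 ± 0.028 (adjusted p = 2.52e-08), trend-removed 0.19. Btg2, an antiproliferative gene named after its values were seen, was higher by 0.52 ± 0.12 (adjusted p = 0.000928), with fluoxetine 0.73 below vehicle (-0.73, adjusted p = 0.00743).

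**Figure D4:**
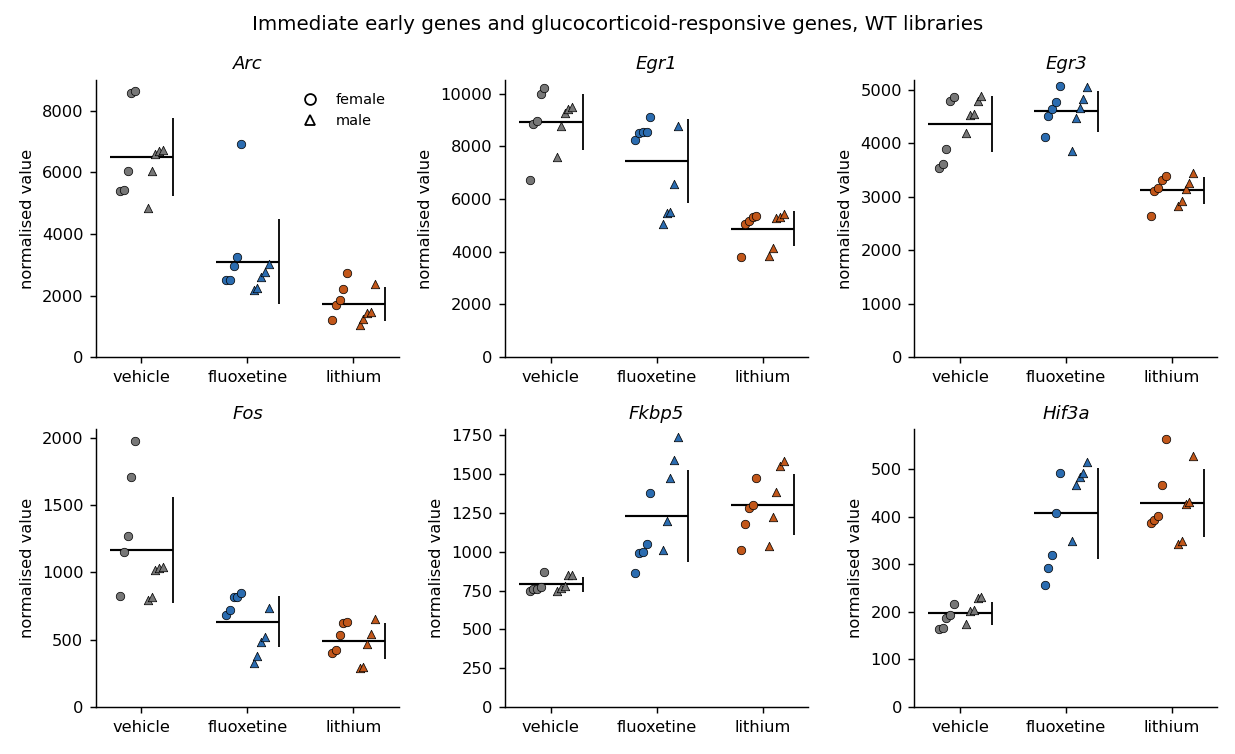
Normalised counts of 4 immediate early genes (Arc, Egr1, Egr3, Fos) and 2 glucocorticoid-responsive genes (Fkbp5, Hif3a) in the 30 WT libraries by treatment. Circles are females, triangles males, horizontal lines means over 10 libraries and vertical lines ±1 SD. Arc medians are 6331 under vehicle, 2693 under fluoxetine and 1587 under lithium, and both drugs lie above vehicle for Hif3a.

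Several glucocorticoid-responsive genes stood above vehicle under each drug. Corticosterone acts through the glucocorticoid receptor, which raises its own chaperone Fkbp5 and other genes. Of 25 such genes 3 were higher and 3 lower between the drugs (median -0.04), trend-removed 3 and 2 (0.05). Against vehicle 14 were higher and 3 lower under lithium (median 0.25), beside 25.9% and 25.5% of all genes. Under fluoxetine 7 were higher and 1 lower (median 0.26), beside 0.386% and 0.229%. Both comparisons use the same vehicle libraries. Hif3a, a hypoxia-inducible factor induced by glucocorticoids, had medians of 415 under lithium, 437 under fluoxetine and 197 under vehicle. Its range of 163 to 232 under vehicle lay below those of 344 to 564 and 256 to 515 under the drugs. Fkbp5 had medians of 1292, 1124 and 771, and Tsc22d3, the glucocorticoid-induced leucine zipper, of 2121, 2090 and 1654.

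Between the drugs Hif3a, Fkbp5 and Tsc22d3, named after their values were seen, stood at 0.10 ± 0.12, 0.11 ± 0.11 and -0.02 ± 0.090 (adjusted p = 0.542, 0.426 and 0.866), trend-removed 0.28, 0.21 and -0.08 (0.0831, 0.131 and 0.551), which does not show that the drugs acted alike. Members of the list that were called include Per1, a clock gene also induced by activity, at -0.44 ± 0.067 (adjusted p = 9.13e-06), and Zbtb16, a zinc finger gene, at -0.35 ± 0.086 (adjusted p = 0.00163). Zbtb16 was above vehicle under both drugs, by 0.33 under lithium (0.54 trend-removed) and 0.68 under fluoxetine. The calls of both genes ended trend-removed, at -0.07 and -0.13 (adjusted p = 0.416 and 0.221). Tgm2, transglutaminase 2, was lower by 0.50 and Klf9, a Krüppel-like factor, higher by 0.15 (adjusted p = 9.72e-05 and 0.00131), the former -0.24 trend-removed.

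Heat shock chaperone genes were more often lower than higher under lithium. Of 25 heat shock chaperones 7 were higher (28%) and 13 lower (52%), with a median of -0.20, trend-removed 0 and 11 (-0.11). The share of all genes was 25.9% higher and 26.0% lower, so only the lower share stood out. Hspa1a, the inducible HSP70, was 197 to 284 under lithium and 317 to 497 under fluoxetine, without overlap (-0.73 ± 0.070, adjusted p = 1.8e-08), trend-removed -0.46. Hsp90ab1, a cytosolic HSP90, and Hspa2, a relative of HSP70, were lower by 0.30 and 0.42 (adjusted p = 4.08e-07 and 9.08e-09). Hspe1, the mitochondrial co-chaperonin, was higher by 0.29 ± 0.035 (adjusted p = 4.5e-07), but stood at -0.04 trend-removed (0.317). Of 26 genes of the unfolded protein response 5 were higher and 8 lower (median -0.0020), trend-removed 3 and 10 (-0.05). Hyou1 and Pdia4, chaperones of the endoplasmic reticulum, were lower by 0.42 ± 0.024 and 0.51 ± 0.054 (adjusted p = 2.48e-11 and 6.78e-08), Hyou1 by -0.25 trend-removed. Atf4, the transcription factor of the integrated stress response, was 3199 to 4174 against 2586 to 3052 and higher by 0.33 ± 0.045 (adjusted p = 2.38e-06).

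The known targets of lithium gave small differences in RNA. Gsk3a, one of the GSK3 genes, was 5778 to 6396 under lithium and 6462 to 7578 under fluoxetine and lower by 0.18 ± 0.029 (adjusted p = 2.32e-05), but higher trend-removed, by 0.08 (0.0382). Gsk3b, the other, stood at -0.08 ± 0.045 (adjusted p = 0.171), trend-removed -0.05 (0.386). The inositol monophosphatase gene Impa1 was 1926 to 2169 against 1673 to 1822 and higher by 0.23 ± 0.027 (adjusted p = 2.58e-07), trend-removed 0.13. Impa2 stood at 0.09 ± 0.086 (adjusted p = 0.405), trend-removed 0.17 (0.136). Inpp1, an inositol phosphatase that lithium also inhibits, was higher by 0.16 ± 0.029 (adjusted p = 9.13e-05), a call that ended trend-removed (0.04, 0.459). Of 37 inositol and phosphoinositide enzymes 6 were higher and 15 lower (median -0.06), trend-removed 6 and 7 (-0.0037).

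Of 20 genes of GSK3 and the beta-catenin destruction complex 2 were higher and 11 lower (median -0.12), trend-removed 3 and 2 (0.01). Apc2, a scaffold of that complex, was lower by 0.45 ± 0.030 (adjusted p = 1.57e-10), but stood at 0.04 trend-removed (0.203). Lrp5, a Wnt co-receptor, was 216 to 353 against 393 to 516 and lower by 0.69 ± 0.070 (adjusted p = 3.94e-08), trend-removed -0.38. Of 25 Wnt and beta-catenin target genes 0 were higher and 14 lower (median -0.24), trend-removed 0 and 8 (-0.12). Lef1, a transcription factor that binds beta-catenin, was 88.9 to 143 under lithium (median 115), 156 to 259 under fluoxetine (median 187) and 180 to 312 under vehicle (median 221). The lithium range lay below both others, with a difference of -0.78 ± 0.11 (adjusted p = 3.13e-06, 10 of 10 libraries) and, in HT males, -0.36 ± 0.16 (adjusted p = 0.0933). Nkd1, a feedback inhibitor, and Tcf7l1, a relative of Lef1, were lower by 0.49 and 0.67 (adjusted p = 5.13e-08 and 2.22e-06), trend-removed -0.33 and -0.38. Axin2, the classic feedback target, was lower by 0.29 ± 0.036 (adjusted p = 7.47e-07), a call that ended trend-removed (-0.07, 0.171).

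Of 19 circadian clock genes 2 were higher and 9 lower (median -0.19), trend-removed 2 and 6 (-0.08). Nr1d1, which encodes the repressor REV-ERB alpha, was 1835 to 2352 under lithium and 2824 to 3238 under fluoxetine, without overlap (-0.55 ± 0.040, adjusted p = 4.16e-10), trend-removed -0.35. Dbp, a clock output factor, was lower by 0.48 ± 0.051 (adjusted p = 8.43e-08), trend-removed -0.21, and Cry2, a repressor of the clock, by 0.32 (1.82e-08), a call that ended trend-removed (-0.08, 0.0527). With the slopes as covariates Dbp (-1.03, adjusted p = 0.0214) and Vstm2l, a secreted immunoglobulin-domain gene (-1.53, 0.0152), were the only genes named here that were still called.

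Of 28 genes of cholesterol synthesis and regulation 13 were higher and 8 lower (median 0.09), trend-removed 13 and 4 (0.10). Against vehicle the list had 8 higher and 11 lower under lithium and 0 and 4 under fluoxetine, where all genes gave 25.9% and 25.5%, and 0.386% and 0.229%. The enzymes Msmo1, of sterol demethylation, and Ggps1, of geranylgeranyl diphosphate synthesis, were higher by 0.52 ± 0.058 and 0.31 ± 0.028 (adjusted p = 1.53e-07 and 8.66e-09), Ggps1 by 0.11 trend-removed. Msmo1 was 2173 to 3231 under lithium and 1572 to 2041 under fluoxetine. Scap and Srebf2, which sense sterols and switch on the pathway, were lower by 0.40 and 0.29 (adjusted p = 2.48e-11 and 6.86e-09). Trend-removed Scap stood at -0.06 (0.0342) and Srebf2 at 0.05 (0.143). Stard4, a sterol carrier named after its values were seen, had medians of 960, 732 and 979 under lithium, fluoxetine and vehicle. It fell under fluoxetine by 0.32 (adjusted p = 0.000601) and was higher by 0.35 ± 0.050 under lithium than under fluoxetine (adjusted p = 4.01e-06).

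Synaptic genes were mostly lower under lithium before the trend was removed. Of 40 postsynaptic scaffold and adhesion genes 3 were higher and 27 lower (median -0.24), trend-removed 2 and 13 (-0.04). Of 49 genes of vesicle release 4 were higher and 28 lower (median -0.19), trend-removed 1 and 13 (-0.03). Nrxn2, a presynaptic neurexin, was 11158 to 12795 under lithium and 16242 to 18221 under fluoxetine, far apart (-0.55 ± 0.030, adjusted p = 1.07e-11), yet its call ended trend-removed at -0.06 (0.129). Ppfia3, a liprin of the active zone, was lower by 0.40 (adjusted p = 3.22e-11) and stood at 0.01 trend-removed (0.781).

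All 6 NMDA receptor subunit genes were tested, 0 were higher and 5 lower (median -0.33), trend-removed 0 and 4 (-0.16). Grin2d, a subunit common in interneurons, was 291 to 367 under lithium and 534 to 645 under fluoxetine (-0.80 ± 0.047, adjusted p = 3.01e-11), trend-removed -0.27. Grin2c was lower by 0.67 ± 0.064 (adjusted p = 2.06e-08), trend-removed -0.22. Grin1, the obligatory subunit, was lower by 0.41 ± 0.029 (adjusted p = 3.45e-10), a call that ended trend-removed (-0.05, 0.151). Of 7 metabotropic glutamate receptor genes 0 were higher and 4 lower, trend-removed 0 and 5. Grm2 and Grm4 were both lower by 0.71 (adjusted p = 2.35e-07 and 1.16e-06), trend-removed -0.41 and -0.29. Of 23 AMPA and kainate receptor genes 6 were higher and 11 lower (median -0.04), trend-removed 4 and 4 (0.0046).

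Of 14 GABA receptor subunit genes 8 were higher and 2 lower (median 0.12), trend-removed 2 and 0 (0.04). Gabra4, a subunit of the ligand-gated chloride channels, was higher by 0.36 ± 0.057 (adjusted p = 1.78e-05). The metabotropic subunits Gabbr1 and Gabbr2 were lower by 0.14 and 0.29 (adjusted p = 7e-06 and 6.13e-08). Trend-removed, Gabra4 was still called at 0.19 (0.0160), while the calls of Gabbr1 and Gabbr2 ended, at 0.06 (0.129) and 0.01 (0.836).

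Slc6a4, which encodes the transporter that fluoxetine blocks, was not among the genes tested. Of 12 receptor genes 1 was higher and 1 lower (median 0.05), trend-removed 0 and 1 (-0.04). Htr2c was 750 to 2093 against 480 to 1392 and higher by 0.55 ± 0.21 (adjusted p = 0.0336, 8 of 10 libraries). That call ended on leaving out any 1 of 11 libraries, namely WT fluoxetine female replicate 5 and male replicates 1, 3, 4 and 5, and WT lithium female replicates 1, 4 and 5 and male replicates 1, 3 and 5 (0.45 to 0.54, adjusted p = 0.0504 to 0.0701), and trend-removed (0.41, 0.148). Htr6 was 69.3 to 109 against 113 to 149 and lower by 0.46 ± 0.084 (adjusted p = 9.27e-05), ending trend-removed (-0.11, 0.289). Of 13 dopamine and noradrenaline receptor genes 0 were higher and 5 lower (median -0.26), trend-removed 1 and 3 (-0.08). Adra1d, an alpha 1 adrenoceptor, was lower by 0.61 ± 0.078 (adjusted p = 8.98e-07), trend-removed -0.25.

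Of 86 genes whose symbols start with Kcn, potassium channels and their partners, 14 were higher and 30 lower (median -0.12), trend-removed 9 and 8 (-0.004). Kcng1, a silent subunit that modifies other channels, was 1140 to 1416 against 1968 to 2257 and lower by 0.66 ± 0.042 (adjusted p = 8.51e-11), trend-removed -0.36. Of 25 sodium and calcium channel genes 4 were higher and 11 lower (median -0.105), trend-removed 4 and 4 (0.03). Of 28 genes of the sodium pump, exchangers and osmolyte transport 4 were higher and 9 lower (median -0.04), trend-removed 3 and 7 (-0.0071). Lrrc8a, the essential subunit of the volume-regulated anion channel, was lower by 0.42 ± 0.033 (adjusted p = 1.48e-09), trend-removed -0.19. Slc8a2, a sodium-calcium exchanger, and Slc12a5, the chloride exporter KCC2, were lower by 0.46 and 0.37 (adjusted p = 4.39e-10 and 1.45e-09). Both calls ended trend-removed (-0.09, 0.0562 and 0.01, 0.881).

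Interneuron markers did not move together. Of 25 such genes 5 were higher and 7 lower (median 0.03), trend-removed 5 and 4 (-0.09). Pvalb, the calcium buffer of fast-spiking basket cells, was 716 to 1202 under lithium (median 823), 328 to 543 under fluoxetine (median 520) and 319 to 658 under vehicle (median 482). Lithium lay wholly above both others, by 0.89 ± 0.11 over fluoxetine (adjusted p = 4.17e-07, 10 of 10 libraries), and by 0.57 ± 0.15 in HT males (adjusted p = 0.00653), a call that ended there trend-removed (0.41, 0.0818). Tac1, the gene of substance P, was 388 to 1809 against 191 to 689, with overlap, and higher by 0.99 ± 0.22 (adjusted p = 0.000575, 9 of 10 libraries). Its highest library was 1 lithium female at 1809. Summed striatal markers, genes of a neighbouring region, ran from 9219 to 28237 under lithium and from 8614 to 19025 under fluoxetine, with 1 of 15 called higher and 1 lower, and their part in the Tac1 result was not tested.

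Reln, the secreted guide of layering made by other interneurons, was 1556 to 2252 under lithium (median 1892) and 2308 to 4133 under fluoxetine (median 2913), without overlap (-0.57 ± 0.084, adjusted p = 6e-06, 10 of 10 libraries), trend-removed -0.37. Kcnc1, the fast potassium channel of basket cells, was lower by 0.25 ± 0.039 (adjusted p = 1.41e-05) but higher trend-removed, by 0.13 (0.00347). Vip, the peptide of disinhibitory interneurons, was higher by 0.42 ± 0.069 (adjusted p = 2.97e-05), a call that ended trend-removed (0.09, 0.341). Naa15 itself was 1575 to 1957 against 1493 to 1710 and higher by 0.16 ± 0.037 (adjusted p = 0.000756), ending trend-removed (0.06, 0.252).

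**Figure D5:**
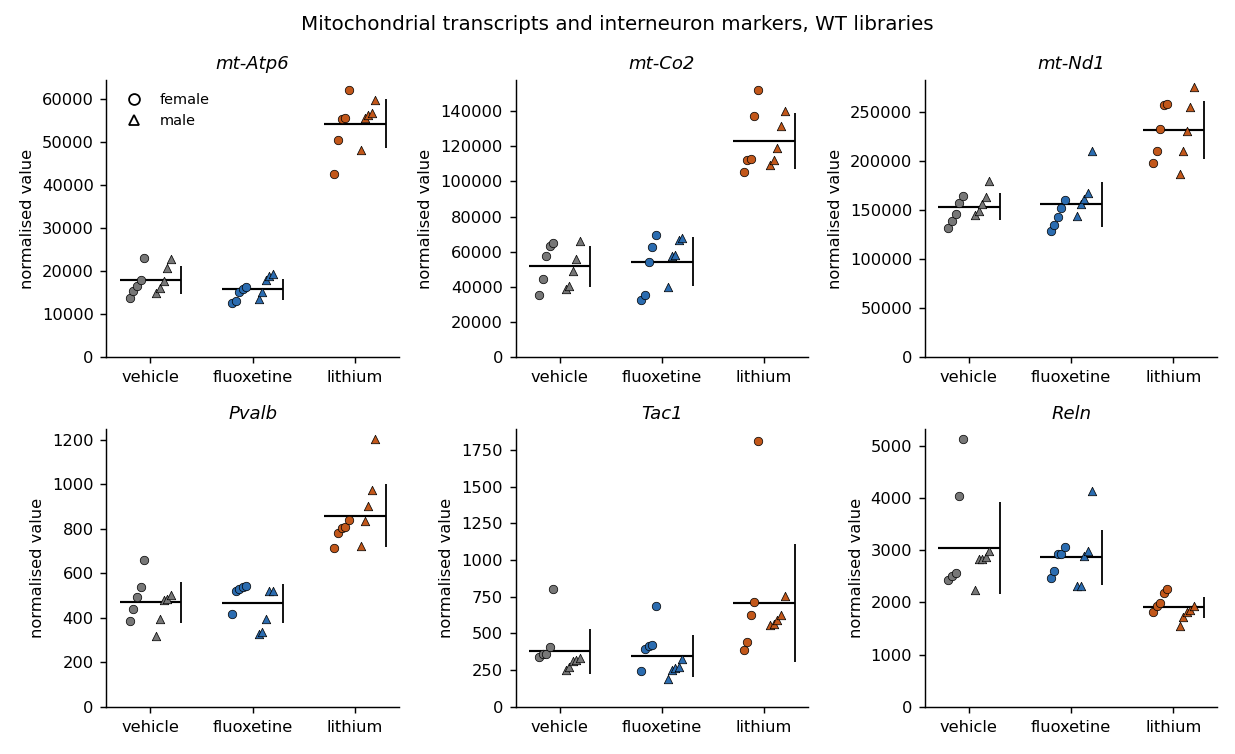
Normalised counts of 3 mitochondrially encoded genes and 3 interneuron markers in the 30 WT libraries by treatment. Circles are females, triangles males, horizontal lines means over 10 libraries and vertical lines ±1 SD. Lithium libraries lie above all fluoxetine libraries for mt-Atp6 (42531 to 61975 against 12523 to 19318), mt-Co2 and Pvalb, and below them for Reln.

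Among genes at or above the median level, some large differences fell outside the gene lists. Gm4724, annotated as protein coding at chr2:175422300-175435807 (GRCm38, minus strand), was 671 to 794 under lithium and 228 to 493 under fluoxetine, higher by 1.26 ± 0.11 (adjusted p = 3.12e-09). Another gene annotated as Myl12b (ENSMUSG00000117098, chr17:70974119-71002208, minus strand), which overlaps the main one, was 653 to 1214 against 1806 to 2116 and lower by 0.94 ± 0.077 (adjusted p = 2.35e-09). The main Myl12b gene (ENSMUSG00000034868), named after its value was seen, was higher by 0.20 (adjusted p = 0.000527), and the split of reads between both is uncertain. Gm21887 on chromosome X, lower by 1.15 ± 0.30 (adjusted p = 0.00248), varied from 95.9 to 1141 under lithium and from 239 to 1743 under fluoxetine. The GC-rich genes C1qtnf4, Vstm2l and Zfp771 were lower by 0.78, 0.76 and 0.81 (adjusted p up to 1.27e-07), trend-removed -0.36, -0.37 and -0.41.

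HT males, whose libraries are shared with no WT group, gave the same comparison in other animals. HT females were left out, since the HT fluoxetine females stood apart from the other fluoxetine libraries in earlier results of these data. The HT fluoxetine females had GC slopes of -0.236 to -0.0581, inside the WT lithium range, and mitochondrial shares of 6.91% to 9.03%. This library profile thus also occurred in libraries labelled fluoxetine. In HT males 4991 genes were called (27.9%), 2232 higher (12.5%) and 2759 lower (15.4%). The fit pooled their spread with that of the WT lithium and fluoxetine males, which are also in the main comparison. The calls are thus not independent of those in WT. The genes called higher in both, 2076, were 44.8% of the WT list and 93% of the HT male list, and those called lower in both, 2643, were 56.8% and 95.8%. Of the WT calls 96.2% of the higher and 97% of the lower had the same sign in HT males, and 2 and 0 were called the opposite way. The GC slopes of the HT males were -0.205 to -0.0674 under lithium and -0.00249 to 0.149 under fluoxetine, so the shift in library profile was present there too, and its part in the overlap was not tested. Trend-removed, HT males had 405 higher and 636 lower calls. By list, HT males had 0 higher and 10 lower of 16 basement membrane genes, 4 and 13 of 24 endothelial markers, 1 and 22 of 38 immediate early genes and 45 and 4 of 80 nuclear oxidative phosphorylation genes. These list counts were not made trend-removed. Single vessel genes went both ways there: trend-removed, Hspg2 and Cdh5 were called in HT males at -0.28 and -0.38 (adjusted p = 0.0307 and 0.00366). Notch3 and Col4a1 were not, at -0.10 and -0.12 (0.331 and 0.31). The interaction of drug with genotype in males called 3 genes, and 1576 had an unadjusted p under 0.05.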

How the data were processed

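RNA from prefrontal cortex was sequenced in 59 libraries, and 1 table of genes by libraries was used. The deposited values are a normalised signal: whole gene counts that the authors divided by 1 size factor per library. This was read from the values, which were whole multiples of 1 step in all 59 libraries (100% within 0.01 read). Without giving roles, the submitters' processing notes list GRCm38, DESeq2 1.19.11, Salmon 0.11.2 and R 3.6.0. The gene filter, annotation release and litters are not given in the sources used here. Size factors were 0.8272 to 1.129 and recovered reads 24.99 to 32.87 M per library, which limits counting error only.

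GENCODE M21 on GRCm38 gave each gene's symbol, position, GC content and length. The filter kept genes at 10 or above in 4 or more libraries. They were tested by limma-trend, with limma 3.58.1 in R 4.3.3, on log2(value + 1), which understates the change of low genes. The main fit held the WT lithium and fluoxetine libraries with sex as covariate. Both vehicle comparisons came from a fit of all 30 WT libraries with sex as covariate. Contrasts within a sex and drug by sex used the 4 WT lithium and fluoxetine groups together. The HT male contrast and drug by genotype used the 4 male lithium and fluoxetine groups together. The spread was pooled over the libraries of each fit. Tests were two-sided, with Benjamini-Hochberg adjustment at 0.05. Trend removal subtracted from each library natural splines (5 degrees of freedom) on GC content and log2 length. Other alternatives were edgeR 4.0.16 and DESeq2 1.42.0 on recovered reads, other scalings, filters and added constants, a replicate block, and leaving out each library. Library properties were compared by permutation (SciPy 1.17.1).

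The members and the 45 gene lists were chosen with earlier results of these data known. Named were the 10 largest increases and decreases at or above the median level, up to 4 members of each list with a called gene by smallest p, and 7 genes whatever their values (Gsk3a, Gsk3b, Impa1, Impa2, Inpp1, Slc6a4, Naa15). Lower ranks were left out for length, some genes the rule names are not reported here, and genes named otherwise are said to be so. Replicate numbers did not pair the libraries (residual correlation of 10 same-numbered pairs -0.398 to 0.138, mean -0.11), and no 2 libraries of a group were duplicates (chi-square per degree of freedom at least 4.97). In 1 simulated data set of this layout, few genes were changed and no GC or length trend was added. There 49.3%, 82.1% and 98.5% of genes changed by 0.25, 0.5 and 1 on the log2 scale were recovered among 17891 genes. These shares hold for that setting, which differs from the data in both respects.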

Additional observations from a re-analysis of the deposited data

Results flagged for a closer look

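In the following groups of 5 libraries, 1 library stood apart from the other 4 by Dixon's test at 95% (critical value 0.71). Of 464 groups tested, over 113 genes and 3 library properties, 31 were picked, where chance gives about 5%. WT fluoxetine female replicate 5 stood apart for 8 genes: Lars2 (3909), Pvalb (416), Acta2 (762), Myl9 (550), Arc (6924), Nr4a1 (3108), Tgm2 (537) and Zbtb16 (1780). WT fluoxetine female replicate 4 stood apart for Pdia4 (1492), Slc8a2 (15021) and Ppfia3 (6346), and replicate 3 for Bcan (7577).

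Among fluoxetine males, replicate 4 stood apart for Gm28438 (17469), Bsg (14082) and Rheb (2485), and replicate 5 for Col1a1 (3465), Hspa1a (394) and Grm4 (1401). Replicate 2 stood apart for Htr2c (1278) and Kcnc1 (4888), and replicate 1 for Hif3a (350). Among lithium males, replicate 2 stood apart for Vwf (533), Rheb (3304), Atp5mpl (1791) and its length slope (-0.158 log2 per doubling), and replicate 1 for Nr4a1 (2175) and Slc8a2 (12729). Among lithium females, replicate 5 stood apart for Egr1 (3795) and Mfsd2a (1119), replicate 4 for Tac1 (1809) and replicate 2 for Hspa2 (844).

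The difference between lithium and fluoxetine was not the same in HT and WT males for 3 genes by the interaction test of limma. Gdf1 differed by 6.27 (adjusted p = 3.74e-06): it was listed at 0 in all 5 HT fluoxetine males, at 47.1 to 98 in HT lithium males and at 59.5 to 399 in the WT males of both drugs. Rpl17 differed by -0.51 (adjusted p = 0.038), with 3827 to 4895 under lithium and 2563 to 2973 under fluoxetine in WT males, and 3675 to 4238 and 3520 to 3984 in HT males. Gm15500, an annotated processed pseudogene, differed by -0.35 (adjusted p = 0.038).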

How the results depend on the processing

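Against 4633 higher and 4650 lower genes, leaving out 1 library gave 4450 to 4698 and 4488 to 4662, and the tools, filters, scalings, constants and the replicate block gave 3828 to 4876 and 4337 to 4725, apart from the 2 settings on GC content and length. Trend-removed counts were 2423 and 2599, and with the slopes as covariates 34 and 33. Trend removal also gave 975 and 1515 in WT females, 1872 and 1560 in WT males, 3024 and 2810 for lithium against vehicle, 62 lower for fluoxetine against vehicle, 405 and 636 in HT males and 7 lower for drug by genotype.

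With 1 library left out, higher and lower calls were 40 to 106 and 30 to 65 for fluoxetine against vehicle (fewest without WT vehicle male replicate 4, most without WT vehicle female replicate 2), and lower calls 0 to 7 for drug by genotype, 1 of 3 calls being higher throughout. Drug by sex gave 0 to 1 in each direction, with 1 higher call without WT fluoxetine female replicate 2 and 1 lower without WT lithium female replicate 1.

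Trend-removed, these genes changed sign: Hspe1 (-0.042), Apc2 (0.039), Gsk3a (0.076), Srebf2 (0.054), Gabbr2 (0.011), Slc12a5 (0.0096), Kcnc1 (0.13), Gabbr1 (0.057) and Ppfia3 (0.013). With the slopes as covariates mt-Nd3 (-1.61), mt-Rnr2 (-0.33), mt-Nd1 (-0.13), Vip (-0.43), Gm21887 (1.23), Jun (0.044), Sik1 (0.34), Per1 (0.29), Zbtb16 (0.36), Hspa1a (0.18), Tcf7l1 (0.38), Apc2 (0.0099), Naa15 (-0.13), Msmo1 (-0.030), Grm4 (0.20), Gabra4 (-0.59), Htr6 (0.15) and Kcnc1 (0.33) did, none of them called there. In that fit the slopes nearly equal the drug, so few genes can be called. The cause of the other changes was not tested.

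Replicate numbers do not pair the libraries (2 of 20 libraries correlated best with their own number). With the replicate block 4460 genes were higher and 4553 lower, 3107 and 3601 in females, 3305 and 3776 in males, and 58 and 41 for fluoxetine against vehicle. Read depth limits the genes of low level, and 5 libraries of each sex and drug limit the test of drug by sex. In simulated data of that test, with few genes changed and no added trend, 11.9% of genes changed by 0.25 were recovered among 17891.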

Other observations

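Of 23 cortical layer markers 0 were higher and 7 lower under lithium (median -0.14), trend-removed 0 and 3 (-0.11). Of 27 imprinted genes 6 were higher and 5 lower (median 0.02), trend-removed 0 and 4 (-0.01). Of 20 genes of thyroid hormone receptors, transport and targets 2 were higher and 7 lower (median -0.04), trend-removed 2 and 4 (-0.01). Of 11 genes of neurotrophins, their receptors and VGF 2 were higher and 4 lower (median -0.10), trend-removed 0 and 0 (-0.04). Of 5 genes of NatA and its partners 2 were higher and 0 lower (median 0.13), trend-removed 0 and 0 (0.06).

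Markers of dividing and immature cells showed 4 higher and 4 lower of 18 (median 0.03), trend-removed 1 and 3 (0.01). Of 15 olfactory bulb or rostral stream markers 1 was higher and 2 lower, trend-removed 0 and 0. Of 9 markers of the choroid plexus and ependyma 1 was higher and 1 lower (trend-removed 1 and 0), with summed levels of 266 to 3312 under lithium and 303 to 3168 under fluoxetine. Of 7 red blood cell genes 1 was higher and 1 lower (trend-removed 0 and 1), with summed levels of 16328 to 34070 and 15407 to 26347.

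Of the genes not called between the drugs, 31 were above vehicle under both drugs and 11 below vehicle under both. Of those called between the drugs, 7 higher and 2 lower under lithium were above vehicle under both. Another 18 lower and 1 higher under lithium were below vehicle under both. The 2 comparisons with vehicle share the vehicle libraries.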
